A study of Mus musculus with 4 samples.

Results

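Among CD8+ T cells of B16 melanoma, a small set carried mRNA for granzyme F (Gzmf) or osteopontin (Spp1) and was described here in depth. The 10224 WT and 9946 VISTA-KO cells kept had 600 or more genes detected, and less than 30% of their unique molecular identifiers (UMIs) were mitochondrial. A cell entered the CD8+ gate when Cd3e and either of Cd8a and Cd8b1 had a UMI and both Cd4 and Foxp3 had none. Within that gate of 5068 WT and 4084 VISTA-KO cells, those with at least 2 UMIs of Gzmf and Spp1 added together and fewer than 2 UMIs of the division genes Mki67 and Top2a were selected. They numbered 52 in WT and 36 in VISTA-KO, 88 of 20170 cells in all. They were set against 2677 WT and 2054 VISTA-KO comparison cells, which are CD8+ gate cells with a UMI of Pdcd1, the gene of the inhibitory receptor PD-1, and no UMI of Gzmf or Spp1. The genes used for selection, Pdcd1 included, are therefore described and not presented as results.

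The cells came from B16bl6 tumors of C57BL/6 mice, either WT littermates with floxed alleles (Vsir fl/fl) or VISTA-KO, in which CD4-Cre is added to Vsir fl/fl. VISTA, encoded by Vsir, is an inhibitory immune checkpoint protein, and a Cre driven by the Cd4 promoter deletes it in T cells of both lineages, CD8+ cells included, while the other cells of the host keep it. Mice of both genotypes received a vaccine of CpG, R848 and a mutated TRP2 peptide on day 3 after inoculation and 100 µg of the anti-CTLA-4 antibody 9H10 on days 4 and 8. Tumors of several mice of a genotype were pooled, CD4+ and CD8+ T cells were sorted together, and 1 gene expression library and 1 T cell receptor (TCR) library were made per genotype, so that no untreated tumor and no replicate entered. The comparisons below address what sets the selected cells apart from other PD-1 mRNA-positive CD8+ cells, and how they compare between the genotypes.

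Granzymes are serine proteases that cytotoxic T cells and natural killer (NK) cells store in granules and release onto target cells, and perforin opens the target membrane for them. Granzymes C to G and N form a rodent gene cluster beside granzyme B, and they are known from strongly and repeatedly stimulated killer cells. Osteopontin is a secreted phosphoprotein that binds integrins and CD44. Activated T cells make it, and tumor macrophages are known as a large source.

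The libraries held 72098984 UMIs on 10337 barcodes (WT) and 59916814 UMIs on 10085 barcodes (VISTA-KO). The selected cells were deeper than the comparison cells, with a median of 10988 UMIs and 3163.5 genes per WT cell and 10179 UMIs and 2946 genes per VISTA-KO cell, against medians of 5453 and 6100 UMIs. They summed to 622876 and 418681 UMIs. Levels are CPM, the usual depth-scaled unit (UMIs of a gene over all UMIs, times 1e6), of such sums, with exact 95% Poisson intervals, and shares carry exact 95% Clopper-Pearson intervals, except that a share of 0 is given the upper limit that 3 counts would reach. All intervals cover counting error only, since cells of 1 pooled library are not replicates and no difference could be tested. The 2 libraries had 144 barcodes in common, with 0 cells of the same clonotype behind them and 0 selected cells among them.

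Vsir itself was measured at 59.4 CPM (41.8 to 81.9) in the selected WT cells and 95.5 CPM (68.3 to 130) in the selected VISTA-KO cells, and at 112 CPM and 108 CPM in the comparison cells. The targeted gene was thus not lower in the selected cells of VISTA-KO, and it was nearly level between the comparison cells. Reads from an end of the transcript may lie outside the deleted exons, so this level checks neither the deletion nor the labels.

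The label of a Gzmf and Spp1 cytotoxic cell held only in part. Of the selected cells, 5 WT and 3 VISTA-KO cells held both Gzmf and Spp1, 5 and 5 held Gzmf alone, and 42 and 28 held Spp1 alone. The set was therefore mostly one of Spp1 cells, and is called here the Gzmf or Spp1 CD8+ T cells. Among selected cells with Gzmf, 5 of 10 in WT and 3 of 8 in VISTA-KO also held Spp1. Of all non-dividing CD8+ gate cells, 1.82% and 1.66% held a Spp1 UMI. Selection used the sum of both genes, and whether they go together was not tested. Gzmf was concentrated in a few cells. The 195 Gzmf UMIs of WT lay in 10 cells, with 61 in the top cell, and the 188 of VISTA-KO lay in 8 cells, with 75 in the top cell. Spp1 was more evenly spread, with a median of 6 and a maximum of 137 UMIs per WT cell (830 UMIs in 47 cells) and a median of 2 and a maximum of 53 per VISTA-KO cell (264 UMIs in 31 cells). Just inside the threshold, 9 WT and 16 VISTA-KO cells held exactly 2 UMIs, and just outside it 39 and 35 non-dividing cells of the gate held 1. At the upper end, 22 WT and 10 VISTA-KO cells held 10 or more.

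**Figure D1:**
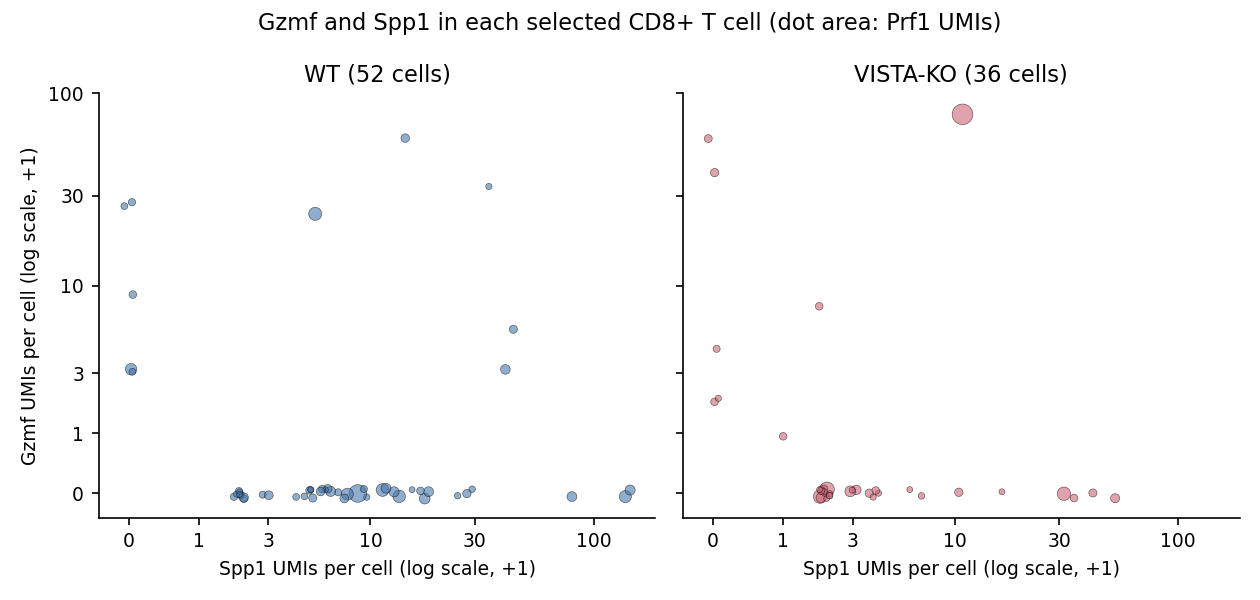
Each dot is a Gzmf or Spp1 CD8+ T cell of the WT (left, 52 cells) or VISTA-KO (right, 36 cells) library, placed by its Spp1 UMIs (x axis) and Gzmf UMIs (y axis), both on a log scale after adding 1 and moved slightly at random so that cells do not hide each other; dot area gives Prf1 UMIs. Most cells lie along the bottom with Spp1 and no Gzmf, and 5 WT and 3 VISTA-KO cells have both.

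The third marker of the label, Prf1, encodes perforin and was not used for selection, although it was already known to lead the same cells in these data. Prf1 in the selected cells reached 891 CPM (818 to 968) for WT and 912 CPM (823 to 1009) for VISTA-KO, against 189 and 204 CPM in the comparison cells. Per cell, Prf1 ranged from 0 to 71 UMIs in WT with a median of 6, and from 0 to 100 in VISTA-KO with a median of 6, and 47 of 52 and 29 of 36 cells held at least 1. After every cell was thinned to 2000 UMIs to set depth equal (0 and 2 selected, 85 and 56 comparison and 5 and 7 naive-like cells of WT and VISTA-KO were shallower and left out), a Prf1 UMI was seen in 57.7% (43.2 to 71.3) of WT and 55.9% of VISTA-KO selected cells, against 90.4% and 80.6% before thinning. In comparison cells the thinned share was 24.4% and 27.4% (51.4% and 55.1% before). Naive-like CD8+ cells, which should hold little perforin, gave 8.66% and 6.60% thinned (21.6% and 16.5% before, median depths of 5383 and 4927 UMIs). Prf1 was at 386 CPM and 666 CPM in the cells just outside the threshold, with 1 UMI. In WT it was at 483, 857 and 1173 CPM in selected cells with 2 to 3, 4 to 9 and 10 or more UMIs, and in VISTA-KO, where the middle class had 7 cells, at 736, 323 and 1573 CPM. In VISTA-KO 1 cell held 100 of the 194 Prf1 UMIs of the top class, which was at 944 CPM without it. Without the cell with most Prf1 UMIs in each library, the selected cells were at 803 and 714 CPM.

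The selected cells were 1.03% (0.767 to 1.34) of the CD8+ gate in WT and 0.881% (0.618 to 1.22) in VISTA-KO, with overlapping counting intervals. Without the limit on division genes, the same Gzmf and Spp1 threshold took 106 WT cells (2.09%) and 67 VISTA-KO cells (1.64%), so that 54 and 31 dividing counterparts stood beside the selected cells. Among dividing CD8+ gate cells, 9.71% in WT and 5.86% in VISTA-KO passed the threshold, and among the others 1.15% and 1.01%. Dividing cells were much deeper (median 13165 UMIs in WT against 4516.5), and the part of depth in this difference was not tested. Outside the gate, 58 WT and 26 VISTA-KO cells had 2 or more UMIs, of which 32 and 9 held a Foxp3 UMI, the mark of regulatory T cells. Naive-like cells, which should lack these transcripts, were read as background. Of 259 naive-like WT cells, 0 held a Gzmf UMI, which allows a share of up to 1.16%, and 2 held a Spp1 UMI; of 310 in VISTA-KO, 1 held a Gzmf UMI and 2 a Spp1 UMI. Cells with macrophage complement RNA (3 or more C1qa, C1qb and C1qc UMIs) held a Spp1 UMI in 10.5% of 171 WT and 8.49% of 106 VISTA-KO cells.

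Markers of other cells were then read in the selected cells. Of 12 macrophage markers, 4 were at 0 in WT and 3 in VISTA-KO, and they summed to 96.3 CPM (WT) and 795 CPM (VISTA-KO), against 147 and 96.2 CPM in the comparison cells. Most of it lay in 3 cells. These were 1 WT cell with 40 macrophage UMIs and 2 VISTA-KO cells with 285 and 44, and without them the sums were 32.4 and 10.4 CPM. Leaving out cells for these very UMIs must lower the sums. The comparison sums kept their 40 and 20 cells with 10 or more macrophage marker UMIs, so the trimmed sums give no direction against them. Lyz2, the lysozyme of macrophages, was the most abundant, with 15 UMIs in WT and 235 in VISTA-KO, of which 212 came from 1 cell. Of the 4 NK cell markers, Ncr1 was at 0 in both libraries and Klrb1c at 0 in WT and 1 cell in VISTA-KO, while Klre1 and Eomes, which CD8+ T cells also express, were measured. Of the gamma-delta markers, Trgv2, a gamma chain segment, was the most abundant, with 102 UMIs in 22 WT cells and 77 in 17 VISTA-KO cells, at 164 and 184 CPM against 89.1 and 102 CPM in the comparison cells (log2 ratios of 0.84 and 0.82). Trdc, the delta chain constant gene, was at 0 in WT and had 4 UMIs in 1 VISTA-KO cell, and Sox13 was at 0 in both. The part of the gamma-delta markers in the results was not tested. B cell, mast cell, neutrophil, fibroblast, melanoma, CD4 and plasmacytoid dendritic cell lists each summed to at most 4 UMIs per library once Bst2, an interferon-stimulated gene, and Tcf4 were set aside. The doublet mark fell on 1 WT and 2 VISTA-KO selected cells, and 0 held 2 beta chains.

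Genes were then compared between the selected and the comparison cells. Genes entered when 1 of the 4 sums had 20 CPM or more, and of these 6619 genes 63 (0.952%) were at least 2-fold higher in the selected cells in both libraries and 136 (2.05%) at least 2-fold lower (taken alone, 2.07% and 3.20% were higher and 4.59% and 5.33% lower in WT and VISTA-KO), on the scale of log2(CPM + 5), which understates the ratio of low genes. The median log2 ratio over all 6619 genes was -0.05 in either library, and 28.6% of them had ratios above 0 and 38.8% below 0 in both. Of these, 34 of the 63 and 88 of the 136 reached 20 CPM only through the cells in which they are high, so that the filter itself favoured a difference there. Gzmf and Spp1 are among the 63, and Mki67 and Top2a among the 136, because the selection used them. With 1 library per genotype a called gene is one past the fold in both libraries and not one that passed a test. Numbers called in the gene lists below stand beside these shares of 0.952% and 2.05% over all genes. Of 45 called genes followed under 18 alternatives, 12 were past the fold in each of them: Prf1, Serpine2, Fcer1g, Nrgn, Tnfrsf9, Csf1 and Klre1 on the higher side and Cxcr3, Tcf7, Lef1, S1pr1 and Gzmk on the lower side. The other 33 were not past it in at least 1 alternative.

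Beside Prf1, the genes with the highest ratios have diverse roles. Serpine2 (ENSMUSG00000026249) encodes protease nexin-1, a secreted inhibitor of serine proteases, and had 193 CPM (WT) and 139 CPM (VISTA-KO) in selected cells, against 11.3 and 12.9 CPM in the comparison cells (log2 ratios of 3.60 and 3.00). It had a UMI in 24 of 52 WT and 9 of 36 VISTA-KO cells, and 1 cell held 62.1% of its VISTA-KO UMIs. Fcer1g, the gamma chain that lets Fc and NK receptors signal, reached 308 and 416 CPM against 51.0 and 49.0 CPM (2.48 and 2.96). In VISTA-KO, 47.7% of it lay in 1 cell, one of the cells with macrophage RNA, and without those cells its level there was 148 CPM. Nrgn, a calmodulin-binding protein best known from neurons, was found in 38 WT and 22 VISTA-KO cells at 315 and 411 CPM against 72.8 and 69.3 CPM (2.04 and 2.49). Both libraries thus placed Nrgn and Prf1 far above the comparison cells. Serpine2 was above them as well, with a mean log2 ratio of 3.30, and 2.52 without the cell with most of its UMIs in each library. It reached 20 CPM only through the selected cells, so the filter favoured its difference. Myo10, a myosin of filopodia, gave log2 ratios of 2.49 and 1.82 and Gldc, the glycine decarboxylase, 2.69 and 1.59. The others at the top of the ranking were Gzmc (1.14 and 3.20), Ms4a4a (1.31 and 2.97), C2cd4b (2.85 and 1.25) and Exph5 (1.88 and 2.16), each with fewer than 70 UMIs in a library. Like Serpine2, the genes Myo10, Gldc, Gzmc, Ms4a4a, C2cd4b and Exph5 reached 20 CPM only through selected cells. Exph5 was at 19.3 and 21.5 CPM against 1.61 and 0.916 CPM and entered only through its VISTA-KO selected cells, with 9 UMIs. Ms4a4a in VISTA-KO was at 117 CPM, and at 38.9 CPM without the cells with macrophage RNA. Without the cell with most of its UMIs in each library Gzmc had 0.63 and 1.15 and C2cd4b 2.29 and 0.61, so neither was then past the fold in both. With comparison cells of the same depth Gldc had 2.38 and 0.97.

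Costimulatory receptors of the TNF receptor family included 2 of the higher genes. Tnfrsf9, which encodes 4-1BB and marks recently stimulated T cells, was at 756 and 939 CPM against 224 and 221 CPM, and was found in 49 of 52 and 30 of 36 cells. Thinned to equal depth, its share was 69.2% and 61.8% of selected cells, 17.1% and 17.9% of comparison cells and 3.54% and 1.65% of naive-like cells (94.2% and 83.3%, 31.8% and 32.4%, and 5.79% and 2.90% unthinned). Tnfrsf4, encoding OX40, was at 214 and 129 CPM against 72.1 and 47.9 CPM. Of the 8 costimulatory receptors these 2 passed the fold and 0 were lower (0.952% and 2.05% over all genes), with list medians of 0.21 and 0.00. Tnfrsf18 (GITR) had ratios of 0.98 and 0.92, just under the fold. Tnfrsf4 was not past it with the gate on thinned cells (0.41 and 0.18), with selection by Gzmf alone (0.18 and 1.08) or with at least 4 UMIs (1.53 and 0.88).

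Inhibitory receptors, which restrain chronically stimulated T cells, did not pass the fold in both libraries: 0 of the 9 genes tested did in either direction, and Pdcd1 was used by the rule. Their list median was 0.70 in WT and -0.09 in VISTA-KO. Lag3 was at 583 and 437 CPM against 270 and 279 CPM (1.10 and 0.64), Havcr2 (TIM-3) at 181 and 141 CPM against 67.2 and 102 CPM (1.37 and 0.45), and Tigit at 607 and 447 CPM against 371 and 361 CPM. Ctla4 was at 283 and 258 CPM against 192 and 283 CPM (0.55 and -0.13). Of 16 transcription factors of CD8+ cell fate tested, 1 passed upwards (0.952% over all genes). It was Irf8, at 355 and 377 CPM against 112 and 133 CPM, in 45 of 52 and 28 of 36 cells. Ratios were above 0 in both libraries for 12 of the 16 (28.6% over all genes), among them Rbpj (1.06 and 0.83), Nfil3, Zeb2, Prdm1, Tox and Ikzf2, with medians of 0.52 and 0.33. Nr4a2, an orphan nuclear receptor induced by TCR signals, had 1.73 in WT and 0.56 in VISTA-KO.

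Genes of naive and memory cells lay at the other end. Of 11 tested, 4 were at least 2-fold lower (2.05% over all genes) and 0 higher (0.952%). Ratios lay below 0 in both libraries for 9 of the 11 (38.8% over all genes), and the medians were -1.25 and -0.79. Tcf7, encoding the stemness factor TCF1, was at 14.4 and 14.3 CPM against 83.3 and 67.9 CPM, with a UMI in 5 WT and 2 VISTA-KO cells. Lef1, Slamf6 and S1pr1, the receptor that guides T cells out of tissue, were the other 3, of which Slamf6 had -0.93 and -2.31 against comparison cells of the same depth. S1pr1 had 2 UMIs in WT and 0 in VISTA-KO, against 31.4 and 32.3 CPM in the comparison cells. The selected cells also held little Cxcr3, the receptor for interferon-induced chemokines, at 48.2 and 35.8 CPM against 280 and 257 CPM (-2.42 and -2.68). Thinned, a Cxcr3 UMI was seen in 11.5% and 11.8% of selected cells, 42.9% and 40.0% of comparison cells and 14.6% and 16.8% of naive-like cells (21.2% and 22.2%, 69.4% and 69.7%, and 36.7% and 28.4% unthinned). In cells with 1 Gzmf or Spp1 UMI, Cxcr3 was at 135 and 109 CPM, between the selected and the comparison cells. The other receptors were mixed: of 7 chemokine receptors Ccr8 passed the fold upwards (56.2 and 81.2 CPM against 19.4 and 17.3 CPM) and Cxcr3 downwards, Cxcr6, a receptor of resident T cells, had 0.28 and 0.33, and the medians were -0.92 and -0.67. Ccr8 was not past the fold with at least 4 UMIs (1.26 and 0.46), with the gate on thinned cells (0.47 and 0.34) or without the dividing limit (0.32 and 0.78).

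**Figure D2:**
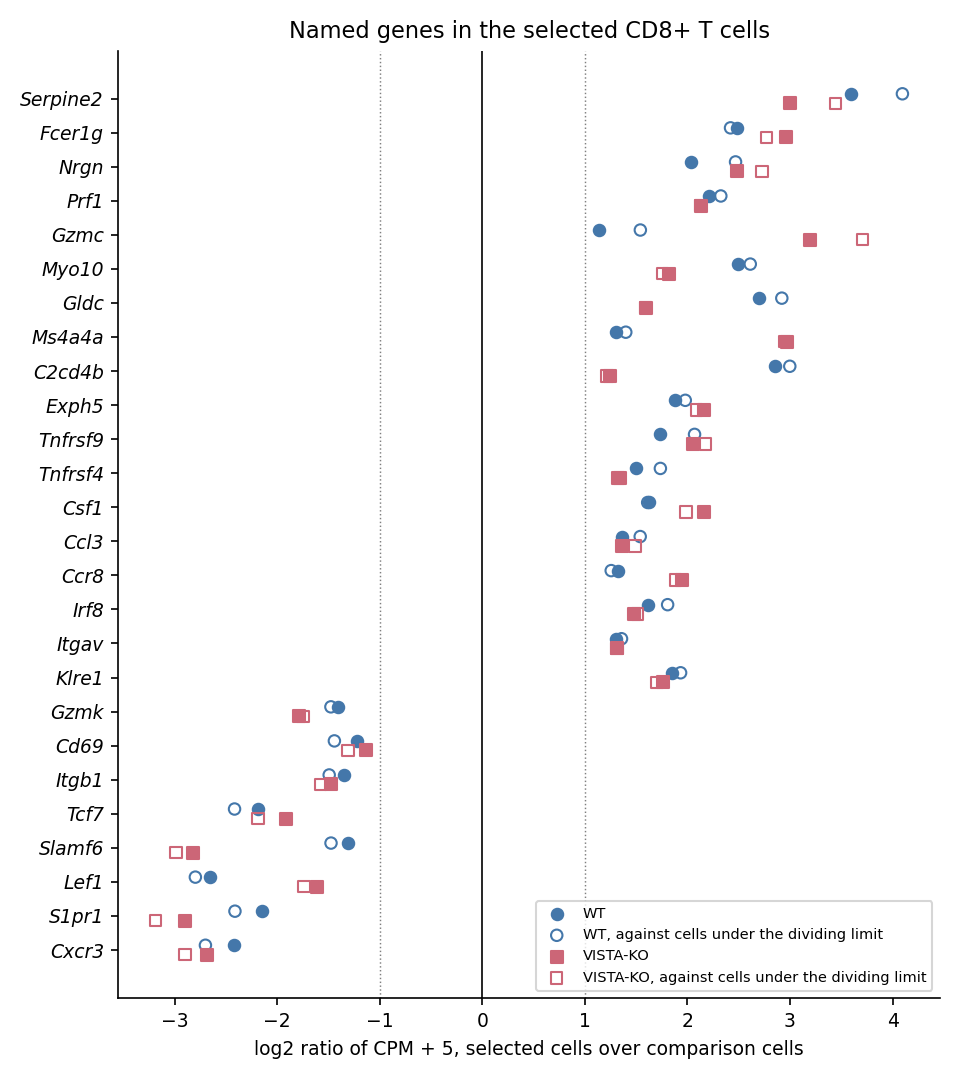
Log2 ratio (x axis, CPM plus 5) of named genes (y axis) in Gzmf or Spp1 CD8+ T cells over comparison cells, circles for WT and squares for VISTA-KO, with filled symbols for all comparison cells and open symbols for those under the dividing limit; dotted lines mark 2-fold. Only genes past 2-fold in the same direction in both libraries are shown, so their shared side follows from that choice. Serpine2 (3.60 and 3.00), Prf1 (2.21 and 2.13) and Tnfrsf9 (1.73 and 2.06) lie to the right. Tcf7 (-2.18 and -1.91) and Cxcr3 (-2.42 and -2.68) lie to the left.

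The lowest 10 held 8 cell cycle genes, Ccna2, Plk1, Kif11, Knl1, Hist1h1b, Cenpe, Nusap1 and Kif22. The limit on Mki67 and Top2a had been set on the selected cells and not on the comparison cells. Against the 2283 WT and 1683 VISTA-KO comparison cells under the same limit, an alternative chosen after seeing the data, 95 genes (1.43% of 6628) were higher and 141 (2.13%) lower. Of the 63 higher genes 61 were again higher, and of the 136 lower genes 88 were again lower. The lowest were then Cxcr3, S1pr1, Pmepa1, Emb, Slco3a1, Pag1, Tcf7, Slc9a9, Lef1 and Slamf6, and Cdkn2a, the cell cycle inhibitor locus, joined the highest at 85.1 and 93.1 CPM against 10.1 and 16.2 CPM. At equal depth a Cdkn2a UMI was seen in 17.3% of WT and 2.94% (1 of 34) of VISTA-KO selected cells, against 2.55% and 3.35% of all comparison cells and 0% and 0.330% of naive-like cells (42.3% and 44.4%, 9.23% and 12.5%, and 0% and 0.323% unthinned), so the VISTA-KO share was not higher when thinned. The dividing list shows the same turn: of 14 tested genes 4 were lower (Tyms, Rrm2, Birc5 and Cdk1) and 0 higher against all comparison cells, with medians of -0.48 and -0.73, and 4 were higher and 0 lower against those under the limit, with medians of 0.71 and 0.46. The 4 were Stmn1, Birc5, Ccnb2 and Cenpa, which act in mitosis or mark dividing cells.

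Cytotoxic genes were mixed. Of 15 genes of granules and their release, Prf1 alone passed the fold (0.952% over all genes were higher), with list medians of 0.15 and 0.00. Nkg7, a granule membrane protein, was at 3929 and 3733 CPM against 3544 and 3752 CPM, and Srgn, the granule proteoglycan, at 1010 and 1223 CPM against 1065 and 1222 CPM. The protease inhibitor Serpinb9, which guards killer cells from granzyme B, had 1.12 in WT and 0.51 in VISTA-KO. Among granzymes, Gzmb was at 1034 and 1015 CPM in selected cells against 770 and 1637 CPM in the comparison cells, so the direction differed between libraries (0.42 and -0.69). Gzmk, a granzyme of memory-type CD8+ cells, was lower at 186 and 174 CPM against 502 and 614 CPM. Gzma had 12 UMIs in 5 WT cells and 43 in 3 VISTA-KO cells. Of 6 tested granzymes 1 was higher (Gzmc) and 1 lower (Gzmk), against 0.952% and 2.05% over all genes, with medians of 0.78 and 0.25.

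The granzymes of the cluster beside Gzmb were held by very few cells. Gzmc had 10 UMIs in 4 WT and 33 in 4 VISTA-KO selected cells, and 27 of the 33 were in the cell with 75 Gzmf UMIs. Gzmd had 43 UMIs in 3 WT cells and 1 in VISTA-KO, and Gzme 56 UMIs in 5 WT cells and 3 in 2 VISTA-KO cells. In WT the top cell for Gzmd held 38 of its UMIs and the top cell for Gzme 33, each with 0 Gzmf UMIs. Gzmn was at 0 in both libraries. The selected WT cells held 43 of the 47 Gzmd UMIs and 56 of the 65 Gzme UMIs of the whole WT library, whereas they held 10 of its 562 Gzmc UMIs. In VISTA-KO they held 1 of 8 Gzmd, 3 of 70 Gzme and 33 of 929 Gzmc UMIs. Reads of these near-identical genes may have been split or discarded in alignment, so their levels are uncertain. Their upstream sequences are shown because they are closely alike. On chromosome 14 of GRCm38.p6, minus strand, the RefSeq promoters of Gzmf, Gzmc, Gzmd and Gzme hold these 30 bases before the start, with capitals for the 8 bases at the place where the cAMP response element TGACGTCA was found:
Gzmf, chr14:56211472-56211501: ccttaagtaatgTGACGTCAatctgaagca
Gzmc, chr14:56234697-56234726: ccttaagtaatgTGACGTCAatcagaagca
Gzmd, chr14:56132637-56132666: ccttaagtaatgTGATGTCAaccagaagca
Gzme, chr14:56120670-56120699: ccttaagtaatgTGACATCAaccagaagca
The exact element was present in Gzmf and Gzmc, and in 407 of 32851 promoters (1.24%) when both strands of the 120 bases before each start were searched. The motif was chosen after these sequences were read, the Gzmc window lies within the annotated span of that gene, and the Runx motif AACCACA (in 2.11% of promoters), the AP-1 motif TGANTCA (3.41%) and the E-box CACGTG (3.66%), searched likewise, were not found in the 4 windows of 120 bases. Pairs of those windows were aligned with free end gaps, and identity over the 95 to 119 overlapping columns ran from 90.5% to 95.8%.

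Secreted signals were described next. Csf1, the macrophage growth factor, was at 93.1 and 167 CPM in selected cells against 26.8 and 33.5 CPM, and was found in 30 of 52 and 18 of 36 cells. It was the only one of 6 tested cytokines past the fold apart from Spp1 itself, which the rule used; the medians were -0.17 and -0.03. Ifng, encoding interferon-gamma, was at 424 and 387 CPM against 227 and 382 CPM. Ccl3, an inflammatory chemokine, was at 1137 and 1514 CPM against 440 and 586 CPM, though 45.1% of the VISTA-KO UMIs lay in 1 cell. Without the top cell of each library Ccl3 had 1.23 and 0.56. Of 7 chemokines Ccl3 and Ccl9 were higher (0.952% over all genes) and Cxcl10 lower (2.05%). Ccl5 had -0.51 and -0.56, and the medians were 0.24 and 0.71. Ccl9 had 7 UMIs in 2 WT cells and 12 in 3 VISTA-KO cells, and its log2 ratio in VISTA-KO was -0.45 without the cells with macrophage RNA. Cxcl10 had -0.02 and -3.10 against comparison cells of the same depth. Among integrins and other receptors for osteopontin, Itgav, the alpha-v chain, was higher (328 and 251 CPM against 130 and 97.8 CPM) and Itgb1, the beta-1 chain, lower (164 and 127 CPM against 425 and 360 CPM), while Cd44 was near 0 (-0.19 and 0.01); the medians of the 4 tested genes were -0.21 and -0.19. Itgb1 was not past the fold in both libraries with comparison cells of the same depth (-1.18 and -0.99) or with the gate on thinned cells (-0.79 and -1.43). Itgav was not with the gate on thinned cells (0.88 and 1.20) or without the dividing limit (0.76 and 0.83). Of 9 cytokine receptors 0 passed, with Il2rb at 0.89 and 0.82 and medians of 0.28 and -0.02.

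NK-type receptors included 2 of 8 past the fold upwards (0.952% over all genes), Fcer1g and Klre1 (94.7 and 134 CPM against 22.7 and 35.8 CPM). Klrd1, the CD94 chain, had 1.00 and 1.17, and the medians were 0.38 and 0.90. Glycolysis and hypoxia genes had 0 of 15 past the fold, and 12 of the 15 were above 0 in both libraries (28.6% over all genes; medians of 0.34 and 0.52), among them Tpi1 (0.57 and 0.87) and P4ha1 (0.69 and 0.66). Of the interferon-stimulated genes 11 of 11 had ratios below 0 in both libraries (38.8% over all genes), with medians of -0.77 and -1.48. The fold was passed downwards by 3 (2.05% over all genes), Ifit1, Ifit3 and Rsad2. Ifit3, an antiviral protein, was at 30.5 and 9.55 CPM against 77.6 and 74.0 CPM. The selected cells were deeper, and against comparison cells drawn to their depth Ifit1, Ifit3 and Rsad2 had -0.40, 0.03 and -0.76 in WT and -2.00, -2.25 and -1.20 in VISTA-KO, so 0 of the 3 then passed in both. Of 15 immediate-early genes 3 were lower (2.05% over all genes), Cd69, Nfkbid and Rgcc, and 0 higher (medians of -0.35 and 0.12). Cd69, an early activation and residency marker, was at 148 and 165 CPM against 351 and 366 CPM. Against comparison cells drawn to the depth of the selected cells none of these 3 passed in both libraries: Cd69 had -0.81 and -0.78, Nfkbid -1.02 and -0.71 and Rgcc -0.67 and -0.69. Heat shock genes had 0 of 10 past the fold (medians of -0.20 and -0.48). MHC class II genes had a median of -1.28 in WT and 2.44 in VISTA-KO, where 1 cell with macrophage RNA held 99.2% of H2-Aa. Over all selected cells they summed to 376 and 1708 CPM, WT first, against 735 and 292 CPM in the comparison cells. Without the selected cells with macrophage RNA the sums were 350 and 169 CPM. The comparison sums kept their 40 and 20 cells with 10 or more macrophage marker UMIs, so the trimmed sums give no direction.

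**Figure D3:**
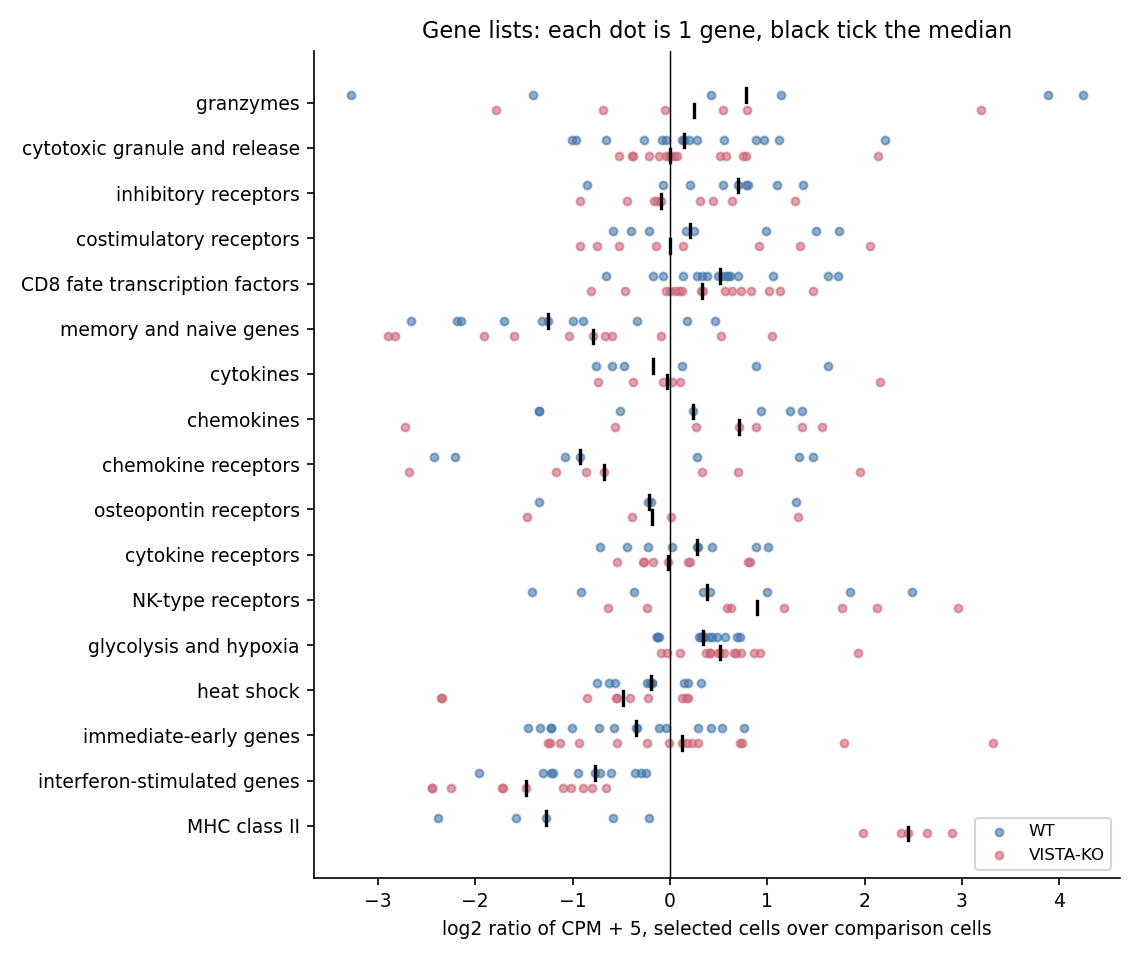
Each dot is a tested gene of the list on the y axis, placed by its log2 ratio (x axis, CPM plus 5) in Gzmf or Spp1 CD8+ T cells over comparison cells, blue for WT and red for VISTA-KO; black ticks are list medians. Interferon-stimulated genes lie left of 0 in both libraries (medians of -0.77 and -1.48), memory and naive genes lie mostly left (-1.25 and -0.79), and MHC class II genes lie at -1.28 and 2.44, the latter with 99.2% of H2-Aa in 1 cell with macrophage RNA.

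Cells with Gzmf and cells with Spp1 alone were next compared within each library, 10 against 42 cells in WT and 8 against 28 in VISTA-KO. Of 184 list genes that reached 20 CPM in any of the 4 sums, 7 were at least 2-fold higher and 21 at least 2-fold lower in Gzmf cells in both libraries, counts that no replicate backs and that rest on few cells. Over all 7685 genes at that level, leaving out those used for selection, 2.07% were higher and 2.95% lower in this way. Gzmb was at 1852 CPM in Gzmf cells against 883 CPM in Spp1-only cells of WT, and at 2602 against 579 CPM in VISTA-KO, with a UMI in 10 of 10 and 8 of 8 Gzmf cells. The top cell held 43.3% and 43.8% of the UMIs of the Gzmf cells, which were at 1171 and 1983 CPM without it. Serpinb9 was at 484 against 156 CPM and 299 against 104 CPM, and Ctla4 at 556 against 232 CPM and 554 against 177 CPM. Without the top cell the Gzmf cells were at 418 and 197 CPM for Serpinb9 and at 457 and 336 CPM for Ctla4. Gzmc had a UMI in 3 of 10 and 3 of 8 Gzmf cells and in 1 of 42 and 1 of 28 Spp1-only cells. The replication factor Mcm5 had a UMI in 0 Gzmf cells of either library and in 16 and 10 Spp1-only cells, at 89.4 and 88.3 CPM. Ccr8 likewise had a UMI in 0 Gzmf cells and in 20 of 42 and 10 of 28 Spp1-only cells. Mcm5 and Ccr8 thus reached 20 CPM only through the Spp1-only cells, and Gzmc only through the Gzmf cells. The filter itself favoured a difference for these genes. Prf1 was at 1142 CPM in Gzmf cells and 845 CPM in Spp1-only cells of WT and at 1539 and 740 CPM in VISTA-KO. There 1 cell held 71.9% of the Prf1 UMIs of the Gzmf cells, which were at 586 CPM without it, below the Spp1-only cells (630 CPM without their own top cell).

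TCR sequences gave a readout that the selection did not use. A clonotype was the V gene and junction nucleotides of the alpha and beta chain with most UMIs, and 45 of 52 WT and 28 of 36 VISTA-KO selected cells had one, in 27 and 19 clonotypes. Clonotypes of 10 or more cells held 64.4% (48.8 to 78.1) of those WT cells and 46.4% (27.5 to 66.1) of those VISTA-KO cells, against 75.4% and 47.0% of comparison cells. Clonotypes of 100 or more cells held only 4.44% (0.543 to 15.1) and 3.57% (0.0904 to 18.3), against 43.5% and 21.9% of comparison cells. Over the whole CD8+ gate the shares were 64.4% and 33.7% for clonotypes of 10 or more cells and 33.2% and 13.0% for those of 100 or more. In WT the selected cells were thus like the gate in the first share, and in both libraries few of them lay in the largest families. Within the CD8+ gate, the class of 100 or more cells was only the largest and the second clonotype of each library. The counts that follow therefore restate that share by clonotype. The largest CD8+ clonotype of WT, with 1006 gate cells, had 1 selected cell, and the second, with 312, had 1. The largest of VISTA-KO, with 285, had 0, which allows a share of up to 1.05%, and the second, with 147, had 1.

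Other clonotypes, chosen because they held most selected cells, were rich in them, as a description of where the cells lay. The WT clonotype next in size (TRAV7-3 with TRBV20) held 7 selected cells and 10 dividing counterparts among 76 gate cells, 22.4% (13.6 to 33.4) together. Another (TRAV7D-2 with TRBV5) held 7 of 26, and one of TRAV14D-3-DV8 with TRBV5 held 3 of 12. These last 2 share their beta chain, and 36 of the 38 gate cells with that chain held 2 alpha chains, and counted by the beta chain they held 10 selected cells of 38. In VISTA-KO, a clonotype of TRAV10 with TRBV3 held 5 of 20 and one of TRAV12-2 with TRBV19 held 4 selected cells and 7 dividing counterparts of 60. The clonotype that ranked next among VISTA-KO selected cells (TRAV12D-3 with TRBV26) had only 2 gate cells, both selected, with 58 Gzmf UMIs between them. Of clonotypes with at least 20 gate cells, 10 of 23 in WT and 4 of 12 in VISTA-KO had a selected cell. Of the selected cells' clonotypes, 12 of 27 and 5 of 19 also held dividing counterparts, and 0 clonotypes of selected cells were found in both libraries, which had 3 clonotypes in common over all cells. The beta junctions of these families are shown because they identify them, with cells counted by the beta chain alone and the first and last codon in capitals, and the largest CD8+ family of each library follows for comparison:
WT, TRBV20, 7 selected cells of 81: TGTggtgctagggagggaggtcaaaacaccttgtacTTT
WT, TRBV5, 10 selected cells of 38: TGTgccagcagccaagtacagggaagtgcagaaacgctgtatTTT
VISTA-KO, TRBV3, 6 of 23: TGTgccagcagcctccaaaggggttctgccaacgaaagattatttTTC
VISTA-KO, TRBV19, 4 of 62: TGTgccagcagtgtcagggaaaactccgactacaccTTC
WT, TRBV12-2, 1 of 1031: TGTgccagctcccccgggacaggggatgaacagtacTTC
VISTA-KO, TRBV13-1, 0 of 292: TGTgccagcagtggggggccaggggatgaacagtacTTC
The 6 junctions belong to different TRBV genes.

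**Figure D4:**
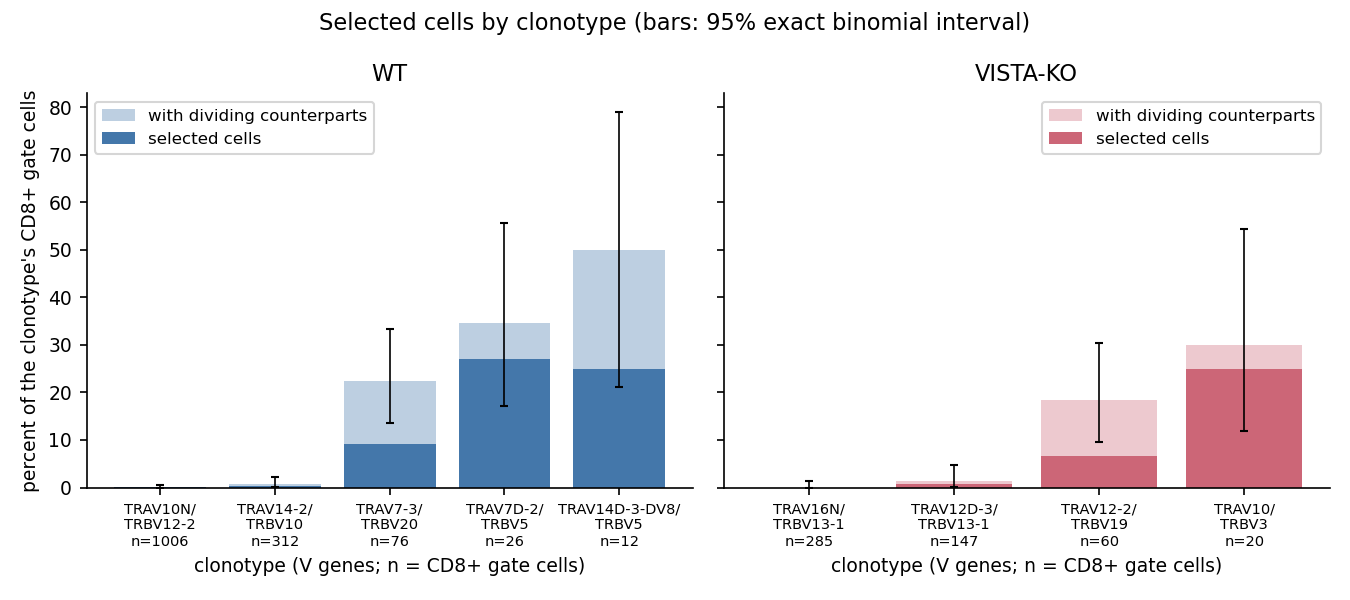
Percent of each clonotype's CD8+ gate cells (y axis) that were Gzmf or Spp1 CD8+ T cells (dark) or these with their dividing counterparts (light, stacked to the total), for the largest clonotypes and those with most selected cells (x axis, V genes and number of gate cells); bars are 95% exact binomial intervals of the total. The largest clonotypes, of 1006 and 312 cells in WT and 285 and 147 in VISTA-KO, lie near 0. Those chosen for their selected cells, such as TRAV7-3 with TRBV20 (22.4%) and TRAV7D-2 with TRBV5 (34.6%), lie higher because of that choice. Of clonotypes with at least 20 gate cells, 13 of 23 in WT and 8 of 12 in VISTA-KO held no selected cell.

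Between the genotypes, the selected cells were compared as 1 sum each. Of 6169 genes with at least 20 CPM in 1 library, 582 (9.43%) were at least 1.5-fold higher in VISTA-KO and 644 (10.4%) lower, and without the 3 cells with macrophage RNA 587 (9.51%) and 637 (10.3%) of 6171. The filter was met only through the library with the higher level by 329 of the 582 and 388 of the 644 genes, which favours a difference. In the far larger comparison sums the same fold gave 57 genes (0.947% of 6021) and 43 (0.714%), and the median absolute log2 ratio was 0.27 in selected and 0.08 in comparison cells. Prf1 differed little, with a log2 ratio of 0.03, and Gzmb with -0.03. A few cells carried the highest ratios. Hmox1, the heme oxygenase of macrophages, had 249 UMIs in VISTA-KO against 3 in WT, of which 97.6% lay in 1 cell, and its log2 ratio went from 5.93 to 0.64 without the 3 cells; Ier3, Ifitm3 and H2-DMa went from 3.30, 2.98 and 2.04 to 0.42, 0.60 and 0.73. Il4i1 had 4.26, and 4.37 without them, with 97.4% of its UMIs in 1 cell, and 0.59 without the top cell. Of the 348 higher genes whose counting interval of the ratio left out 1, 76 had over 50% of their VISTA-KO UMIs in 1 cell.

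Some other differences were spread over more cells. Slc16a3, the lactate exporter MCT4, had 15 UMIs in 11 of 52 WT cells and 47 in 17 of 36 VISTA-KO cells, 24.1 against 112 CPM, and its log2 ratio was 2.01, 1.75 without the cells with macrophage RNA and 1.15 without the dividing limit, while it was -0.06 in the comparison cells. Mpp1, a membrane scaffold protein, had a UMI in 6 and 17 cells, at 11.2 and 69.3 CPM (2.19, and 0.00 in comparison cells). Its ratio was 0.92 with at least 4 UMIs, 0.37 with the gate on thinned cells and 0.42 without the dividing limit. Impact and Fam20b had 7 VISTA-KO cells each with a UMI against 1 and 0 in WT, and Rnf130 14 against 7 (-0.21 with the gate on thinned cells). Fam20b and Impact had 9 and 12 UMIs in VISTA-KO and entered only through that library, at 21.5 and 28.7 CPM, and without the dividing limit their ratios were 0.94 and 1.11. Mpp1 and Rnf130 likewise reached 20 CPM through VISTA-KO alone, since their WT levels were 11.2 and 12.8 CPM. The filter thus favoured a difference for these genes. In the other direction, Plcxd2 had a UMI in 13 WT cells and 1 VISTA-KO cell (-2.26), and Kbtbd3 in 12 and 0 (-2.37), with -0.08 and -0.09 in the comparison cells. Both entered only through WT, at 30.5 and 20.9 CPM, and Kbtbd3 had 13 UMIs there. Penk, which encodes proenkephalin, had 100 UMIs in 10 WT cells against 2 in VISTA-KO, with 57.0% in 1 cell, and 89.5% of the Areg UMIs of WT (amphiregulin, a growth factor) lay in 1 cell. Gzmd, Gzme, Cib2, Tff1, C2cd4b and Hspa1b completed the lowest 10, with 88.4%, 58.9%, 47.4%, 30.6%, 34.9% and 48.0% of their WT UMIs in 1 cell. Like Penk and Areg, they were below 20 CPM in VISTA-KO and entered only through WT. In the comparison cells Penk, Tff1 and C2cd4b were also lower in VISTA-KO (-1.48, -1.22 and -0.85), whereas Areg was higher (1.18). Gzmd, Gzme, Cib2 and Hspa1b had 0.02, 0.49, -0.41 and -0.36 there. Spp1 and Gzmf, used for selection, were at 1333 and 631 CPM and at 313 and 449 CPM in WT and VISTA-KO. These differences and a difference between 2 pools of mice cannot be told apart.

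**Figure D5:**
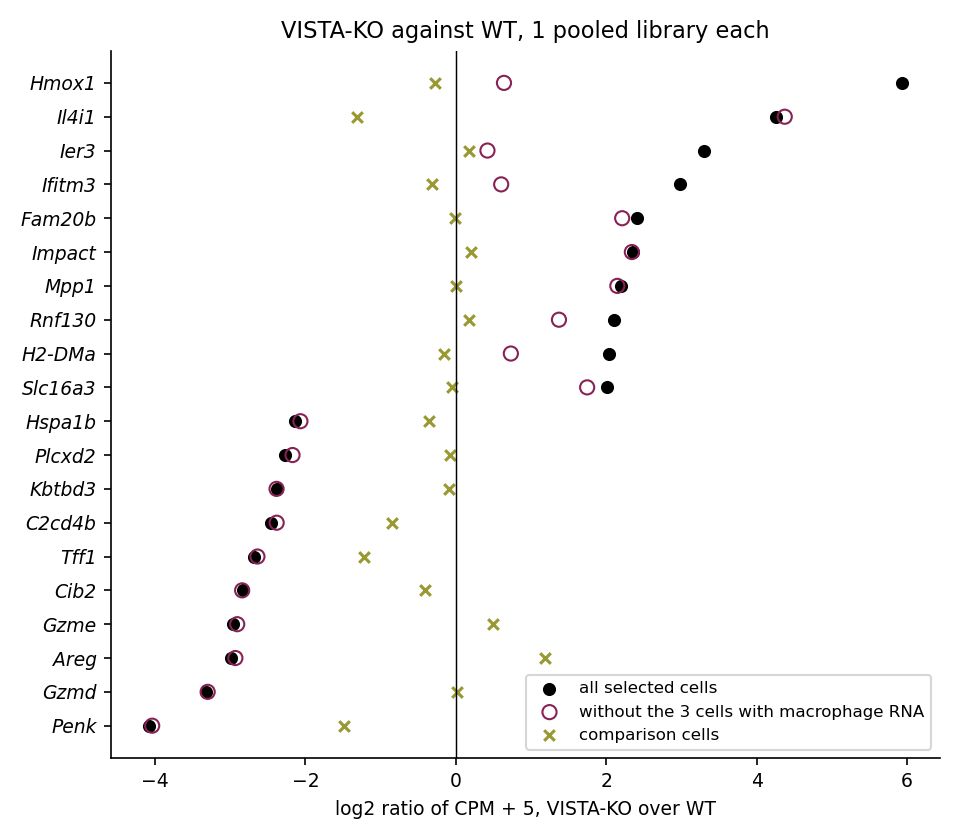
Log2 ratio of VISTA-KO over WT (x axis, CPM plus 5, 1 pooled library each) for the 10 highest and 10 lowest named genes (y axis) in all Gzmf or Spp1 CD8+ T cells (black), without the 3 cells with macrophage RNA (open circles) and in comparison cells (crosses). Hmox1 moves from 5.93 to 0.64 when the 3 cells are left out, and Mpp1 (2.19 to 2.15) and Slc16a3 (2.01 to 1.75) move less.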

How the data were processed

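Gene expression and TCRs were measured in 1 pool of tumors per genotype (5 to 6 mice or 6 to 8 tumors; the sources differ, as they do on a 3′ or 5′ kit). The authors aligned reads to GRCm38 (mm10) using Cell Ranger. The deposited values are UMI counts, not normalized, for each gene and barcode, and UMI counts for each TCR contig. Seurat 4 is named in the submitters' processing notes; the authors' clusters were not used here.

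Cells were kept and gated as the report states, UMIs were summed per library and group, and CPM ratios used a pseudocount of 5. Python 3.11.15, numpy 2.4.6, scipy 1.17.1, pandas 2.3.3, scanpy 1.11.5 and matplotlib 3.10.9 were used, and the steps were tested on simulated data. Members, gene lists, markers and the ranking rule were chosen with earlier results of these data known. Named genes were those of the lists and, per comparison, the 10 highest and 10 lowest log2 ratios; for members these had to pass 2-fold in both libraries, and between genotypes the counting interval had to leave out 1 and the direction to be the same in members with more Gzmf than Spp1 UMIs and in the others. Rule genes, TCR segments, mitochondrial and ribosomal protein genes and Gm or Rik symbols were left out. Naive-like cells are CD8+ gate cells with a Ccr7 and a Lef1 UMI and no Pdcd1 UMI. Scrublet called 1 WT and 0 VISTA-KO cells and thus did not work; cells above percentile 92 of its score or with 2 beta chains (1047 WT and 1140 VISTA-KO) were left out only as an alternative. Sequences came from RefSeq tables (GRCm38.p6).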

Additional observations from a re-analysis of the deposited data

How the results depend on the processing

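No paired analysis was possible because each genotype has 1 pooled library, and for the same reason no replicate could be left out. Of 36 shares under the alternatives 28 stayed within the counting interval, of 70 numbers of genes 48 stayed within 1.5-fold, and of 36 log2 ratios of Prf1 25 stayed within their interval and 0 changed sign. Of 810 ratios of single genes between selected and comparison cells 602 stayed within their interval, 189 moved and 19 changed sign, and of 300 between genotypes 232 stayed, 64 moved and 4 changed sign. Of the 45 called genes 12, and of the 20 named between genotypes 14, were past the fold in every alternative run on them, the others not. Both sets were chosen from these same data. The 20 also had to keep their direction in members with more Gzmf than Spp1 UMIs and in the others. That choice favoured staying past the fold, so these counts are no independent support. Il4i1 was among the 14 although 97.4% of its VISTA-KO UMIs lay in 1 cell. The causes of the changes below were not tested. Against comparison cells drawn to the depth of the selected cells (190 and 280 cells), 15 of 19 higher and 17 of 26 lower genes were past the fold, and with the gate on thinned cells 14 and 11.

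With at least 4 Gzmf plus Spp1 UMIs the VISTA-KO share of the gate was 0.416%, 1075 genes were higher and 983 lower in VISTA-KO, Prf1 had 2.41 and 2.42 in WT and VISTA-KO, and Areg turned to 0.20. With the gate set on cells thinned to 2000 UMIs the VISTA-KO share was 0.360%, 88 genes were lower in selected cells, 1009 were higher and 1130 lower in VISTA-KO, and Ier3 and Rnf130 turned to -2.15 and -0.21. Selection by Gzmf alone gave shares of 0.197% and 0.171%, 44.4% and 75.0% in clonotypes of 10 or more cells, 182 higher and 397 lower genes, 1548 higher and 2258 lower in VISTA-KO, and Prf1 at 2.57 and 3.10, with C2cd4b and Ccr8 turned to -0.32 and -2.22. Without the dividing limit the shares were 2.09% and 1.64%, 311 genes were lower in VISTA-KO, and Prf1 had 1.77 and 1.25. There Ccna2 (1.01), Plk1 (1.22), Kif11 (0.58), Knl1 (0.82), Hist1h1b (0.16), Cenpe (1.34), Nusap1 (0.72), Kif22 (0.74), Tyms (0.45), Rrm2 (0.76), Birc5 (1.28), Cdk1 (1.22) and Areg (0.20) changed sign.

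Without the need for Pdcd1 in comparison cells 101 genes were higher and Prf1 had 2.40 and 2.41. A pseudocount of 20 CPM gave 23 higher and 52 lower genes, and 306 and 313 between genotypes; a minimum of 50 CPM gave 41 and 72, and 230 and 196; no minimum gave 1233 and 1694 between genotypes. With the same weight for each cell Prf1 in VISTA-KO had 1.78. Of the 3 alternatives chosen after seeing the data, the dividing limit on comparison cells gave 95 higher genes and turned Ccna2 (0.33), Nusap1 (0.050), Rrm2 (0.66), Birc5 (1.70) and Cdk1 (0.19). Leaving out cells with macrophage RNA moved no share, number of genes or Prf1 ratio past these limits. Without the cell with most UMIs of the gene in each library Prf1 had 2.06 and 1.78, and 15 of 19 higher and 26 of 26 lower genes were past the fold.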
